A study of Mus musculus with 12 samples.

Results

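Solute carrier genes encode membrane proteins that move amino acids, sugars, nucleotides, vitamins and ions across the cell surface and the membranes of organelles. The 173 genes described here are the protein-coding Slc genes that reached a mean of 1 FPKM over 6 libraries of 4T1 cells, of 345 protein-coding Slc symbols and 30803 genes listed. FPKM counts the fragments per kilobase of transcript relative to the library's mapped reads. Slc7a11, Slc3a2, Slc2a1, Slc40a1 and Slc11a2 were left out by choice, of which 3 lay at or above that mean. The members belong to 39 families, and the remaining 167 Slc genes lay below the mean. Members were chosen by these mean levels, which are given as a description. The lowest members were Slc25a26 at 1.05, Slc5a5 at 1.06 and Slc43a2 at 1.29 FPKM, and the nearest genes below were Slc7a3 at 0.96, Slc8a2 at 0.951 and Slc16a10 at 0.947 FPKM. In 1 member, Slc5a5, the mean lay under 1 FPKM in a single group, at 0.88 FPKM in GSH and 1.24 FPKM in WT.

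Samples were labelled as 4T1, a mammary carcinoma line from a BALB/c mouse, grown in DMEM with serum, and their groups were named by genotype as GSH, WT, Cas9 and Ctrl. GSH is set beside WT and Cas9 beside Ctrl in the design text; the labels neither expand GSH nor name the gene that Cas9 targeted, so no targeted gene could be read as a check. No age, agent or clone is labelled. Values came from 10 libraries (3 GSH, 3 WT, 3 Cas9 and Ctrl 3), and Ctrl 1 and Ctrl 2 were not analysed here.

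Read totals implied by the FPKM worth of 1 read lay between 18531444 and 30168737 in GSH libraries and between 20297490 and 21954133 in WT libraries. For the other libraries, whole reads recovered from the FPKM steps were summed instead, to at least 29303403 in each Cas9 library and 34786607 in Ctrl 3. The 2 kinds of total are not alike. The defining epithelial markers Epcam, Krt8, Krt18, Krt7 and Cldn7 summed to 1486 to 1539 FPKM in GSH libraries and 1380 to 1457 FPKM in WT libraries. Of 5 leukocyte markers the sum was 0.841 to 1.88 FPKM in GSH and 0.809 to 1.12 FPKM in WT. In the other table the same leukocyte markers summed to 269.9 to 459 FPKM in Cas9 libraries and 378 FPKM in Ctrl 3, with epithelial markers at 1691 to 2480 FPKM in Cas9 and 2339 FPKM in Ctrl 3. The Cas9 and Ctrl libraries thus held leukocyte transcripts that were near 0 in the GSH and WT libraries. Genes of the mitochondrial genome took 14.7 to 15.9% of all FPKM in GSH libraries and 20.5 to 21.7% in WT libraries, and FPKM values are scaled to a library total. Markers of secretory glands summed to 18.6, 364 and 143 FPKM in GSH 1 to 3 and to 1.63, 4.46 and 263 FPKM in WT 1 to 3, so they did not follow the groups. Fibroblast markers (Col1a1, Col1a2, Col3a1 and Dcn) summed to 11.5 to 26.6 FPKM in GSH libraries and 0.903 to 13.6 FPKM in WT libraries. Erythroid markers summed to 18.4 to 58.4 FPKM in GSH and 4.67 to 36.9 FPKM in WT. Skeletal muscle markers summed to 13.1 to 18.8 FPKM in GSH and 12.5 to 56.0 FPKM in WT, and hepatocyte markers to 6.51 to 12.9 and 4.60 to 9.85 FPKM. The part of all these transcripts in the results was not tested.

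Solute carriers fall into families that share sequence and, in most cases, a kind of substrate. Most members of the SLC25 family, here called mitochondrial carriers, sit in the inner mitochondrial membrane and exchange nucleotides, phosphate, amino acids and carboxylates with the cytosol; Slc25a17 is a peroxisomal member and Slc25a46 one of the outer mitochondrial membrane. SLC7, SLC1 and SLC38 carriers supply amino acids to proliferating cells, SLC16 carriers move lactate and pyruvate, SLC35 carriers fill the Golgi and endoplasmic reticulum with nucleotide sugars, and SLC30 and SLC39 carriers move zinc in opposite directions. Bulk RNA gives the level of a transcript and not the amount or activity of a transporter, and in bulk samples fewer cells of a type and less RNA per cell cannot be told apart. A few members carry an Slc symbol without being carriers: Slc9a3r1 and Slc9a3r2 encode the NHERF scaffold proteins, Slc4a1ap encodes kanadaptin, and Slc7a6os is named for its place opposite Slc7a6.

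Levels were uneven. The median member averaged 8.40 FPKM over the 6 libraries, 78 members reached 10 FPKM, 14 reached 50 FPKM and 61 stayed under 5 FPKM. The 12 highest held 41% of the members' summed FPKM, and all members together took 0.974 to 0.994% of all FPKM in GSH libraries and 0.956 to 0.972% in WT libraries. Slc25a5 and Slc25a4, the adenine nucleotide translocases that exchange mitochondrial ATP for cytosolic ADP, led with 324 and 188 FPKM. Next came the mitochondrial phosphate carrier Slc25a3 at 163 FPKM and the lactate and pyruvate carrier Slc16a1 (MCT1) at 126 FPKM. Behind them stood the large neutral amino acid exchanger Slc7a5 (LAT1) at 97.4 FPKM, the sodium-phosphate cotransporter Slc20a1 at 68.7 FPKM, the glutamine carrier Slc1a5 (ASCT2) at 68.4 FPKM and Slc38a2 (SNAT2), another glutamine carrier, at 60.5 FPKM. The zinc importer Slc39a1, the orphan Slc35e4, the cationic and neutral amino acid exchanger Slc7a6 and the nucleoside carrier Slc29a1 (ENT1) followed at 55.7, 55.0, 54.2 and 53.2 FPKM, close enough to each other that libraries of 1 gene overlapped those of the next.

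**Figure D1:**
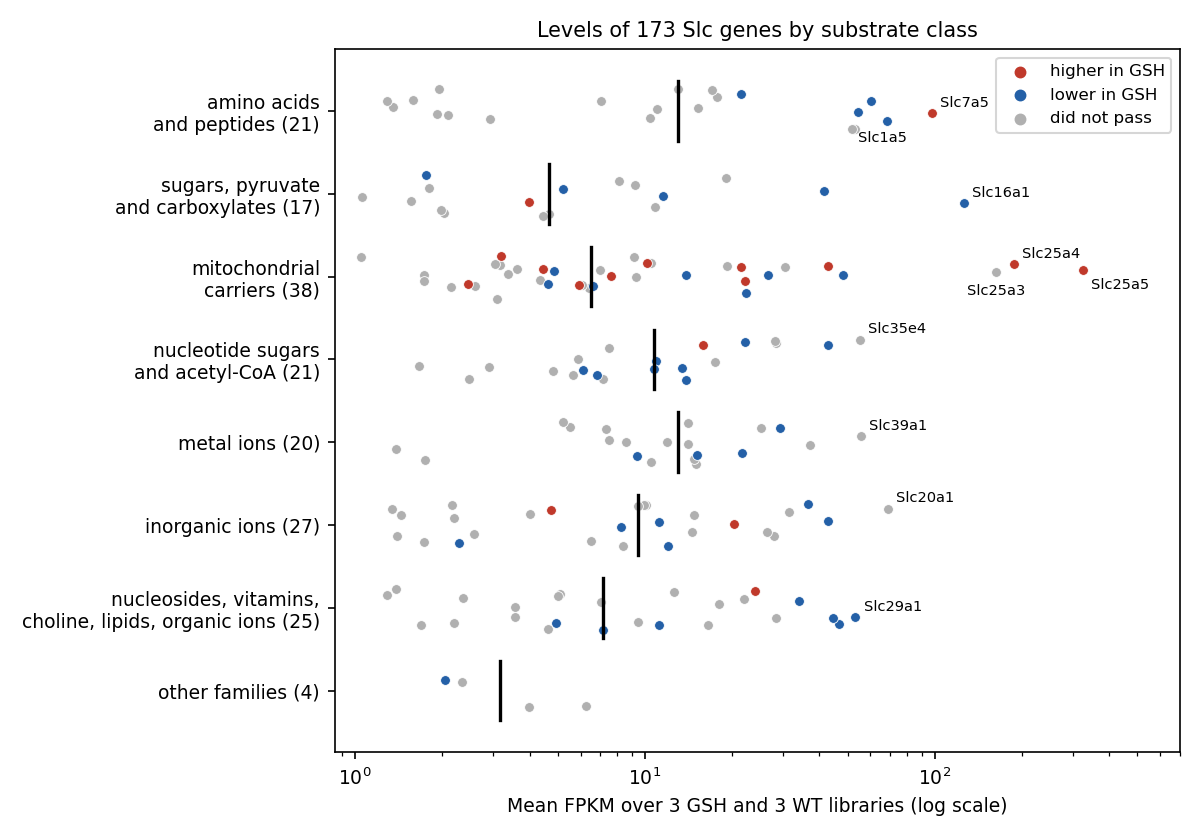
Mean FPKM of each of the 173 Slc genes over 3 GSH and 3 WT libraries on a log axis, in rows by substrate class with the number of members; each point is a gene, coloured by the outcome of the GSH against WT test, and bars mark class medians. Slc25a5, Slc25a4 and Slc25a3 stand at 324, 188 and 163 FPKM, above all members of the other classes.

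By substrate, the 38 mitochondrial carriers held 32.7% of the members' FPKM and the 21 carriers of amino acids and peptides 16%. Inorganic ion carriers (27 members) held 12%, carriers of nucleosides, vitamins, choline, lipids and organic ions (25 members) 11.6%, metal ion carriers (20 members) 9.71%, carriers of nucleotide sugars and acetyl-CoA (21 members) 9.66% and carriers of sugars, pyruvate and carboxylates (17 members) 7.95%. Libraries of a group agreed closely, with a median coefficient of variation of 3.92% in GSH and 4.09% in WT. The fewest reads behind any member in a library were 47, and 12 members had under 100 reads in some library.

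In GSH against WT, 17 of the 173 members rose and 42 fell, and 114 did not pass an adjusted p of 0.05 in limma over the 12283 genes tested. That is 9.83% of members higher, where 20.6% of all genes tested were higher, and 24.3% lower, where 16.4% of all genes tested were lower; in either direction 34.1% of members were called, beside 37% of all genes. The median member differed by -0.06 on the log2(FPKM + 1) scale, against 0.021 over all genes tested. Changes were small: among called members the median size was 0.199, and 4 passed 0.3 either way. All 59 called members had groups that did not overlap, and none changed sign under any of 17 alternative settings. Counting these called members too, 25 members had every GSH library above every WT library (29% of all genes did). In 71 members, again with the called ones, every GSH library lay below every WT library (23.5% of all genes did). The members' summed level was 3192 ± 16.1 FPKM in GSH and 3215 ± 12.1 FPKM in WT (SD, n = 3 each). The balance of calls moved with scaling: 12 rose and 57 fell with relative log expression scaling, 7 rose and 64 fell with mitochondrial genome genes left out of the total, and 8 rose and 56 fell with the 10 most abundant genes left out. All genes tested moved the same way under these scalings: 2533 rose and 2014 fell as first tested, against 2183 and 2251 with relative log expression scaling, 1446 and 2792 without mitochondrial genome genes, and 1738 and 2457 without the 10 most abundant genes. Counts also moved with libraries: 8 rose and 23 fell without WT 1, 10 rose without WT 2, 11 rose without GSH 2, and 9 rose and 25 fell without GSH 3. Calls over all genes tested dropped too, from 4547 to 3004 without WT 1, 3505 without WT 2, 3668 without GSH 2 and 3120 without GSH 3.

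**Figure D2:**
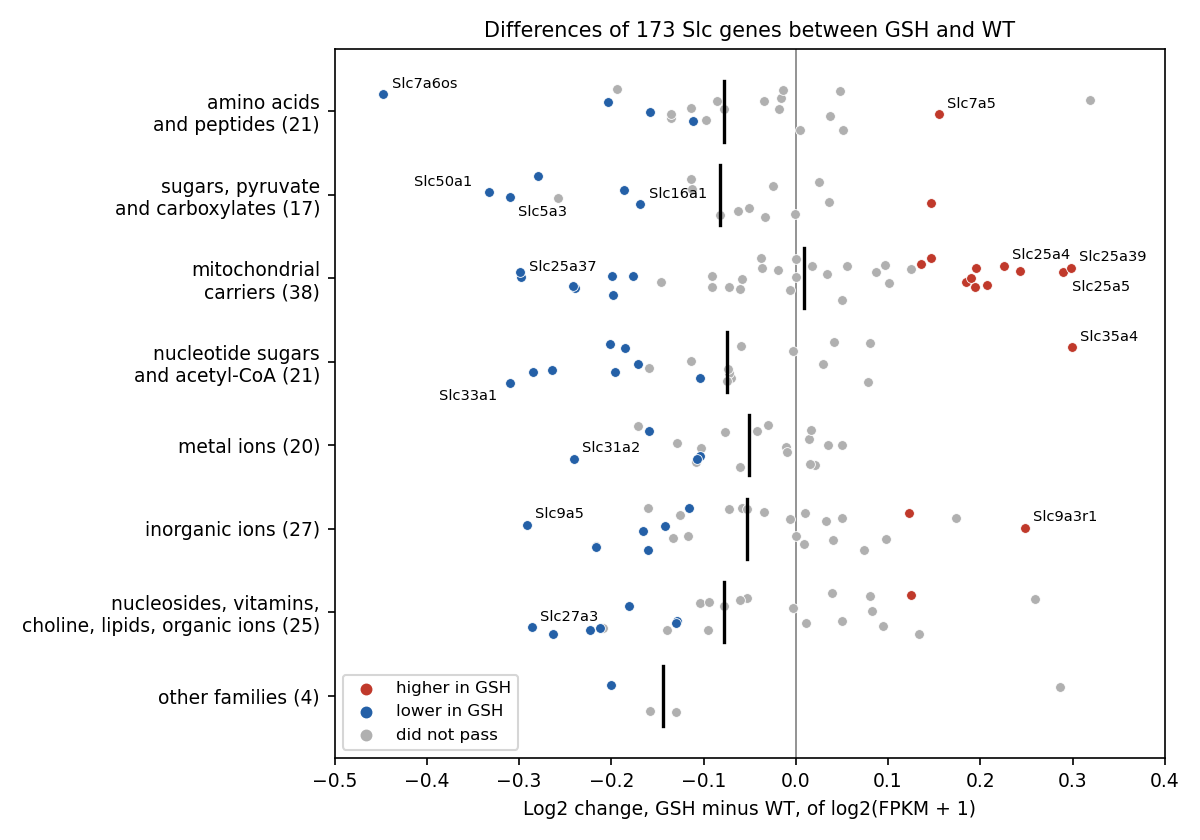
Log2 change of each of the 173 Slc genes, GSH minus WT on log2(FPKM + 1), in rows by substrate class; each point is a gene, coloured by the test outcome, and bars mark class medians. Of the 17 members higher in GSH, 11 are mitochondrial carriers, and the class medians of the other rows lie left of 0. The count of 11 was 5 with mitochondrial genome genes left out of the scaling, when higher calls over all genes also dropped, from 2533 to 1446.

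Mitochondrial carriers made up 11 of the 17 increases and 7 of the 42 decreases, with 20 not called and a median of 0.009. Of the class 28.9% rose and 18.4% fell, beside 20.6% and 16.4% of all genes tested. In the other classes of 17 or more members, 0 to 7.41% rose and 19 to 38.1% fell, to be read beside the same shares. The summed level of the mitochondrial carriers was 1102, 1099 and 1092 FPKM in GSH libraries, against 993, 985 and 1023 FPKM in WT libraries, without overlap. Most of that difference came from Slc25a5 and Slc25a4, which averaged 356 and 202 FPKM in GSH, against 291 and 173 FPKM in WT. The sums thus do not show a rise across the class. The 7 decreases were called under each of the 17 alternative settings that tested the gene. Fewer increases were called under other scalings: 5 rose and 9 fell with mitochondrial genome genes or the 10 most abundant genes left out. The class median was then -0.036 and -0.02, and it was -0.004 with relative log expression scaling. All genes tested shifted the same way, so this is not particular to the class. Their median moved from 0.021 to -0.0325 without mitochondrial genome genes and to -0.0138 without the 10 most abundant. Higher calls over all genes dropped from 2533 to 1446 and 1738, and lower calls rose from 2014 to 2792 and 2457. Leaving out WT 1, WT 2, GSH 1 or GSH 3 left 5, 6, 7 and 6 increases, each with 7 decreases.

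Slc25a5 and Slc25a4, the adenine nucleotide translocases, rose. Slc25a5 measured 352, 362 and 354 FPKM in GSH libraries, against 288, 282 and 303 FPKM in WT libraries. Every GSH library lay above every WT library, the mean was 22.3% higher in GSH, and the log2 change was 0.29 (SE 0.035, limma adjusted p = 0.00263). Slc25a4 measured 206, 200 and 201 FPKM in GSH, against 170, 171 and 177 FPKM in WT, again without overlap (log2 change 0.23, SE 0.029, adjusted p = 0.00315). Slc25a3, which supplies the phosphate for ATP synthesis, overlapped at 167, 166 and 162 FPKM in GSH, against 162, 156 and 165 FPKM in WT, and did not pass (log2 change 0.03, adjusted p = 0.421).

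Slc25a39 and Slc25a40 are close relatives, and Slc25a39 is known for bringing glutathione into mitochondria. Slc25a39 measured 47.7, 48.6 and 45.8 FPKM in GSH, against 36.8, 37.6 and 40.7 FPKM in WT (log2 change 0.30, SE 0.044, adjusted p = 0.00441). Slc25a40 went the other way, with 4.43, 3.85 and 4.20 FPKM in GSH, against 5.00, 5.09 and 5.20 FPKM in WT (log2 change -0.24, SE 0.049, adjusted p = 0.0117). The groups of neither gene overlapped, and Slc25a39 was the more abundant of the pair, at 42.9 FPKM beside 4.63 FPKM over the 6 libraries.

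The mitochondrial iron importers Slc25a37 and Slc25a28 fell. Slc25a37 (mitoferrin-1) measured 42.8, 42.9 and 43.5 FPKM in GSH, against 54.1, 54.5 and 51 FPKM in WT, with a mean that fell by 19% (log2 change -0.30, SE 0.032, adjusted p = 0.00215). Slc25a28 (mitoferrin-2), named here for its role after its values were seen, measured 24.6, 24.2 and 25.3 FPKM in GSH, against 28.5, 28.2 and 28.9 FPKM in WT (log2 change -0.20, SE 0.028, adjusted p = 0.00378). All 6 GSH values of these 2 genes lay below the WT values of the same gene. Slc25a42, a coenzyme A carrier, measured 4.21, 4.33 and 4.17 FPKM in GSH, against 5.10, 5.94 and 5.30 FPKM in WT (log2 change -0.30, SE 0.054, adjusted p = 0.0078). The remaining decreases of the class were the glutamate carrier Slc25a22, the peroxisomal carrier Slc25a17 and the uncoupling protein relative Slc25a27, with log2 changes of -0.18, -0.20 and -0.24, also named after their values were seen.

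Slc25a11, Slc25a12 and Slc25a13, which carry metabolites of the malate-aspartate shuttle, rose. The oxoglutarate and malate carrier Slc25a11 measured 22.7, 22.6 and 23.5 FPKM in GSH, against 19.6, 19.5 and 20.6 FPKM in WT (log2 change 0.20, SE 0.032, adjusted p = 0.00575). The aspartate and glutamate carriers were Slc25a12 (aralar), named for its role after its values were seen, and Slc25a13 (citrin). Slc25a12 measured 4.77, 4.82 and 5.07 FPKM in GSH, against 3.67, 4.18 and 4.08 FPKM in WT (log2 change 0.24, adjusted p = 0.0125). Slc25a13 measured 8.73, 7.79 and 8.06 FPKM in GSH, against 7.15, 6.62 and 7.40 FPKM in WT (log2 change 0.19, adjusted p = 0.0346). Groups did not overlap for any of these carriers. The calls of Slc25a11 and Slc25a12 stood under all 17 alternatives, or all those that tested them. That of Slc25a13 was lost on omission of WT 1 (adjusted p = 0.0782), WT 2 (0.0885), GSH 1 (0.0868) and GSH 3 (0.0751) in turn and under 3 other scalings, with adjusted p of 0.0535 to 0.0924.

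Of the lesser increases, Slc25a1 exports citrate and Slc25a33 carries pyrimidine nucleotides. Slc25a1 measured 23.1, 24.7 and 23.3 FPKM in GSH, against 19.2, 20.7 and 22.4 FPKM in WT, so that the lowest GSH library stood close above the highest WT library (log2 change 0.18, adjusted p = 0.0478). Its call was lost on omission of WT 1 (adjusted p = 0.107), WT 2 (0.104), GSH 1 (0.0794), GSH 2 (0.125) and GSH 3 (0.0937) in turn. Slc25a33 measured 6.18, 6.79 and 6.15 FPKM in GSH, against 5.55, 5.61 and 5.16 FPKM in WT (log2 change 0.19, adjusted p = 0.0238). That call was lost on omission of WT 1 (adjusted p = 0.055), WT 3 (0.0654) and GSH 2 (0.0532) in turn. Slc25a48 had a log2 change of 0.14 (adjusted p = 0.041), with calls lost on omission of WT 1 (adjusted p = 0.113), WT 2 (0.11), GSH 2 (0.105) and GSH 3 (0.12) in turn. The scalings that left out mitochondrial genome genes or the 10 most abundant genes also ended these 3 calls.

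**Figure D3:**
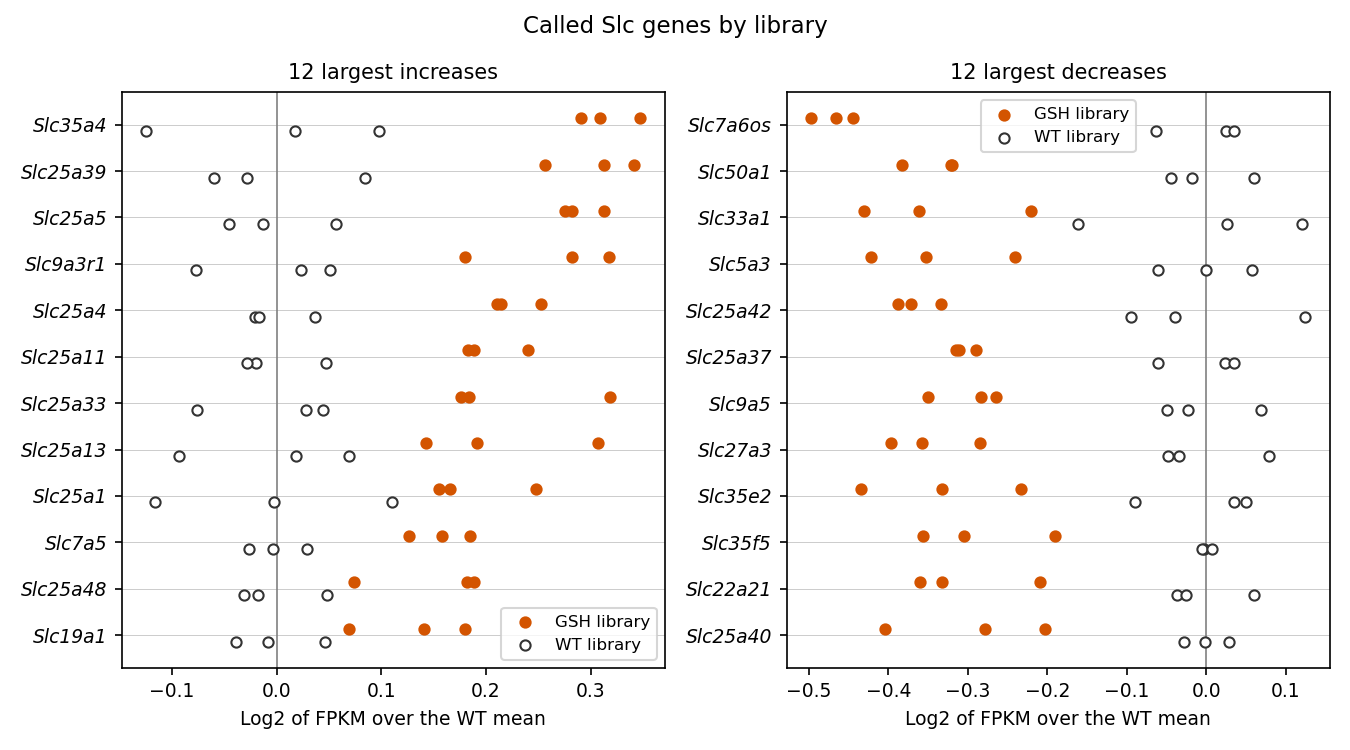
Each GSH and WT library's FPKM as log2 over the gene's WT mean, for the 12 largest increases and the 12 largest decreases. Genes were taken from called Slc genes without overlap between the groups and with a group mean of at least 5 FPKM. Filled points are GSH libraries and open points WT libraries, which do not overlap by this choice. Slc7a6os, at 17.6 to 18.2 FPKM in GSH against 23.8 to 25.5 FPKM in WT, stands farthest from 0.

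Among the 21 carriers of amino acids and peptides, 1 rose, 4 fell and 16 did not pass, with a median of -0.078. Slc7a5, the LAT1 exchanger of leucine and other large neutral amino acids, rose with 101, 105 and 103 FPKM in GSH libraries, against 90.5, 94.1 and 91.9 FPKM in WT libraries (log2 change 0.16, SE 0.029, limma adjusted p = 0.00831). Its groups did not overlap, and its call was lost with mitochondrial genome genes left out of the scaling (adjusted p = 0.0674). Slc3a2, the heavy chain that escorts Slc7a5 to the surface, was among the genes left out of the members and measured 110, 114 and 110 FPKM in GSH, against 120, 121 and 120 FPKM in WT.

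Slc38a2 and Slc1a5, which carry glutamine, fell, as did Slc7a6. Slc38a2 measured 56.2, 55.1 and 57.1 FPKM in GSH, against 65.9, 65.4 and 63.1 FPKM in WT (log2 change -0.20, SE 0.029, adjusted p = 0.00382). Slc1a5 measured 64.8, 66.0 and 66.3 FPKM in GSH, against 71.9, 70.7 and 70.6 FPKM in WT (log2 change -0.11, SE 0.024, adjusted p = 0.0142), and its adjusted p was 0.0539 without WT 1. Slc7a6, an exchanger of cationic for neutral amino acids, measured 50.5, 51.9 and 51.1 FPKM in GSH, against 58.7, 57.5 and 55.4 FPKM in WT (log2 change -0.16, SE 0.03, adjusted p = 0.00935). In all 3 genes each GSH library lay below each WT library. Slc7a6os, which is counted in this class by its symbol alone, had the largest decrease of all members on the log2(FPKM + 1) scale. It measured 18.2, 17.6 and 18 FPKM in GSH, against 25.3, 23.8 and 25.5 FPKM in WT, and its mean fell by 27.8% (log2 change -0.45, SE 0.035, adjusted p = 0.00158). The related yeast protein, Iwr1, helps to bring RNA polymerase II into the nucleus. Slc7a6 and Slc7a6os shared no exon bases in GENCODE M21.

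The highest positive log2 change of any member was that of the glutamate carrier Slc1a2, which did not pass and is named for that after its values were seen. It measured 1.77, 1.64 and 2.21 FPKM in GSH, against 1.40, 1.49 and 1.02 FPKM in WT (log2 change 0.32, SE 0.11, adjusted p = 0.063).

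Carriers of sugars, pyruvate and carboxylates included 1 increase and 5 decreases among 17 members, with 11 not called and a median of -0.083. Their summed level was 239 ± 4.73 FPKM in GSH and 270.4 ± 7.59 FPKM in WT (SD, n = 3 each), and the decreases numbered 2 without WT 1, 3 without WT 3, 2 without GSH 2 and 3 without GSH 3. Slc50a1 (SWEET1), a sugar carrier, measured 37.1, 37.1 and 35.6 FPKM in GSH, against 48.3, 45.8 and 44.9 FPKM in WT (log2 change -0.33, SE 0.036, adjusted p = 0.00215). Slc5a3, which takes up myo-inositol with sodium, measured 10.9, 9.58 and 10.1 FPKM in GSH, against 13.4, 12.3 and 12.8 FPKM in WT (log2 change -0.31, SE 0.051, adjusted p = 0.00586). Both genes had every GSH library below every WT library and were called under all 17 alternatives. Slc16a1 measured 122, 113 and 122 FPKM in GSH, against 140, 128 and 133 FPKM in WT (log2 change -0.17, SE 0.047, adjusted p = 0.0313). Its call was lost on omission of WT 1 (adjusted p = 0.0909), WT 3 (0.069), GSH 2 (0.0737) and GSH 3 (0.06) in turn.

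Nucleotide sugar and acetyl-CoA carriers showed 1 increase and 8 decreases among 21 members, with 12 not called and a median of -0.074. The decreases numbered 4 without WT 1, 4 without WT 3, 5 without GSH 1, 5 without GSH 2 and 3 without GSH 3. Slc35a4, a member of the subfamily of Golgi nucleotide sugar carriers, gave the largest increase among called members, with 17.5, 17.9 and 17.3 FPKM in GSH, against 12.9, 14.3 and 15.1 FPKM in WT (log2 change 0.30, SE 0.054, adjusted p = 0.00798). The CMP-sialic acid carrier Slc35a1, named for its role after its values were seen, measured 20.8, 20.6 and 20.3 FPKM in GSH, against 25.3, 23 and 23.1 FPKM in WT (log2 change -0.20, adjusted p = 0.0119). The family's highest member, Slc35e4, overlapped between the groups (log2 change 0.04, adjusted p = 0.385). In the SLC35 family, 1 of 20 members rose and 7 fell, where 20.6% of all genes tested rose and 16.4% fell.

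Among the less abundant decreases, Slc35f5 measured 12.9, 12 and 11.5 FPKM in GSH, against 14.7, 14.7 and 14.8 FPKM in WT (log2 change -0.26, adjusted p = 0.00561). Slc35e2 measured 5.78, 5.02 and 5.39 FPKM in GSH, against 7.03, 6.95 and 6.38 FPKM in WT (log2 change -0.29, adjusted p = 0.0106). Neither overlapped between the groups. Slc33a1, which brings acetyl-CoA into the endoplasmic reticulum, measured 13.3, 11.5 and 12 FPKM in GSH, against 16.8, 13.8 and 15.7 FPKM in WT (log2 change -0.31, adjusted p = 0.0242). Its call was lost on omission of WT 1 (adjusted p = 0.0683), WT 3 (0.0666), GSH 2 (0.0694) and GSH 3 (0.0708) in turn, and 32% of its exon bases in GENCODE M21 are shared with Gm26850 on the opposite strand, from which its reads may not have been told apart. Slc35b1, an ATP carrier of the endoplasmic reticulum in human cells, measured 39.8, 41.6 and 38.3 FPKM in GSH, against 46.9, 42.9 and 46.6 FPKM in WT (log2 change -0.19, adjusted p = 0.0232). That call was lost on omission of WT 1 (adjusted p = 0.0754), WT 3 (0.0673), GSH 1 (0.0591) and GSH 3 (0.0738) in turn.

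Of the 20 metal ion carriers, none rose (20.6% of all genes tested did), 4 fell (20%, beside 16.4% of all genes) and 16 did not pass, with a median of -0.051. In 9 of the 20 every GSH library lay below every WT library, beside 23.5% of all genes tested. The highest, Slc39a1, measured 55.9, 56.0 and 56.0 FPKM in GSH, against 56.0, 55.0 and 55.2 FPKM in WT (log2 change 0.01, adjusted p = 0.656). The next, the zinc importer Slc39a6, measured 35.3, 36 and 36 FPKM in GSH, against 39.8, 39 and 36.7 FPKM in WT. Its groups did not overlap and it did not pass (log2 change -0.10, adjusted p = 0.0616), but did without WT 3 (adjusted p = 0.0233). Slc31a1 and Slc31a2 of the copper carrier family, named for their role after their values were seen, fell. Slc31a2 measured 8.36, 8.62 and 8.65 FPKM in GSH, against 10.7, 9.91 and 10.2 FPKM in WT (log2 change -0.24, adjusted p = 0.00453). Slc31a1 (CTR1), the copper importer of the cell surface, measured 20.7, 20.7 and 21.2 FPKM in GSH, against 22.9, 22.6 and 22 FPKM in WT (log2 change -0.10, adjusted p = 0.0254), and its adjusted p was 0.0561 to 0.0838 without WT 1, WT 2, GSH 1, GSH 2 or GSH 3. The decreases of the class numbered 1 without WT 1, WT 2 or GSH 1 and 2 without GSH 3.

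Inorganic ion carriers included 6 decreases among 27 members, with 19 not called, a median of -0.053 and 2 increases, which were both NHERF scaffolds and not carriers. The decreases numbered 2 without WT 1, WT 2, GSH 1 or GSH 3. Slc9a3r1 (NHERF1) measured 22.4, 20.9 and 23 FPKM in GSH, against 17.5, 19.1 and 18.7 FPKM in WT (log2 change 0.25, SE 0.048, adjusted p = 0.00988). Slc9a3r2 (NHERF2), named as the other increase of the class, had a log2 change of 0.12 (adjusted p = 0.0464), and its call was lost without any 1 of the 6 libraries, at adjusted p of 0.0646 to 0.12. Slc9a5, the sodium-proton exchanger NHE5, measured 37.0, 39.3 and 38.7 FPKM in GSH, against 46.4, 49.5 and 45.5 FPKM in WT, a mean that fell by 18.7% (log2 change -0.29, SE 0.041, adjusted p = 0.00369). Its groups were well apart. Slc20a1, the highest of the class, overlapped at 66.1, 69.1 and 68.4 FPKM in GSH, against 70.6, 69.8 and 68.3 FPKM in WT (log2 change -0.03, adjusted p = 0.372).

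Of the 25 carriers of nucleosides, vitamins, choline, lipids and organic ions, 1 rose, 7 fell and 17 did not pass, with a median of -0.078, and 4 fell without WT 1 or without GSH 3. Slc44a2, a choline carrier-like protein, measured 41.8, 44.5 and 42.8 FPKM in GSH, against 49.4, 51.8 and 48.9 FPKM in WT (log2 change -0.21, SE 0.036, adjusted p = 0.00643). Slc27a3, an acyl-CoA synthetase of the fatty acid transport family, measured 4.19, 4.53 and 4.31 FPKM in GSH, against 5.34, 5.83 and 5.39 FPKM in WT (log2 change -0.29, SE 0.046, adjusted p = 0.00524). Slc22a21, a carnitine carrier of the mouse, measured 6.27, 6.83 and 6.14 FPKM in GSH, against 8.22, 7.69 and 7.75 FPKM in WT (log2 change -0.26, SE 0.047, adjusted p = 0.00741). In each of these 3 genes the groups did not overlap.

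Slc29a1 and Slc29a2, the equilibrative nucleoside carriers, also fell. Slc29a1 (ENT1) measured 50.2, 52.2 and 50.1 FPKM in GSH, against 56.2, 54.7 and 56.0 FPKM in WT (log2 change -0.13, adjusted p = 0.0139), and its adjusted p was 0.0517 without WT 1 and 0.0561 without GSH 3. Slc29a2 (ENT2) measured 30.4, 32.7 and 32.2 FPKM in GSH, against 37.5, 36.6 and 34.4 FPKM in WT (log2 change -0.18, adjusted p = 0.0207). Its call was lost on omission of WT 1 (adjusted p = 0.0665), WT 2 (0.0604), GSH 1 (0.0528) and GSH 3 (0.0513) in turn. The increase of the class was Slc19a1, the reduced folate carrier, with 24, 25.9 and 25.2 FPKM in GSH, against 22.8, 23.6 and 22.3 FPKM in WT (log2 change 0.13, adjusted p = 0.0427). It did not overlap, and the call was lost on omission of WT 1 (adjusted p = 0.111), WT 3 (0.115), GSH 2 (0.109) and GSH 3 (0.114) in turn, and under 3 other scalings (0.0652 to 0.296).

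Of the 4 members of other families, the highest were the lysosomal sialic acid carrier Slc17a5 and the polyamine carrier Slc18b1. Slc17a5 overlapped at 5.85, 5.40 and 6.41 FPKM in GSH, against 6.43, 7.20 and 6.40 FPKM in WT (adjusted p = 0.11). Slc18b1 measured 3.87, 3.56 and 3.88 FPKM in GSH, against 3.89, 4.46 and 4.31 FPKM in WT (adjusted p = 0.112). The decrease called among the 4 was that of Slc18a2, the vesicular monoamine carrier, with a log2 change of -0.20, which was lost on omission of WT 1 (adjusted p = 0.0963), WT 2 (0.0577), WT 3 (0.111), GSH 2 (0.0956) and GSH 3 (0.11) in turn.

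**Figure D4:**
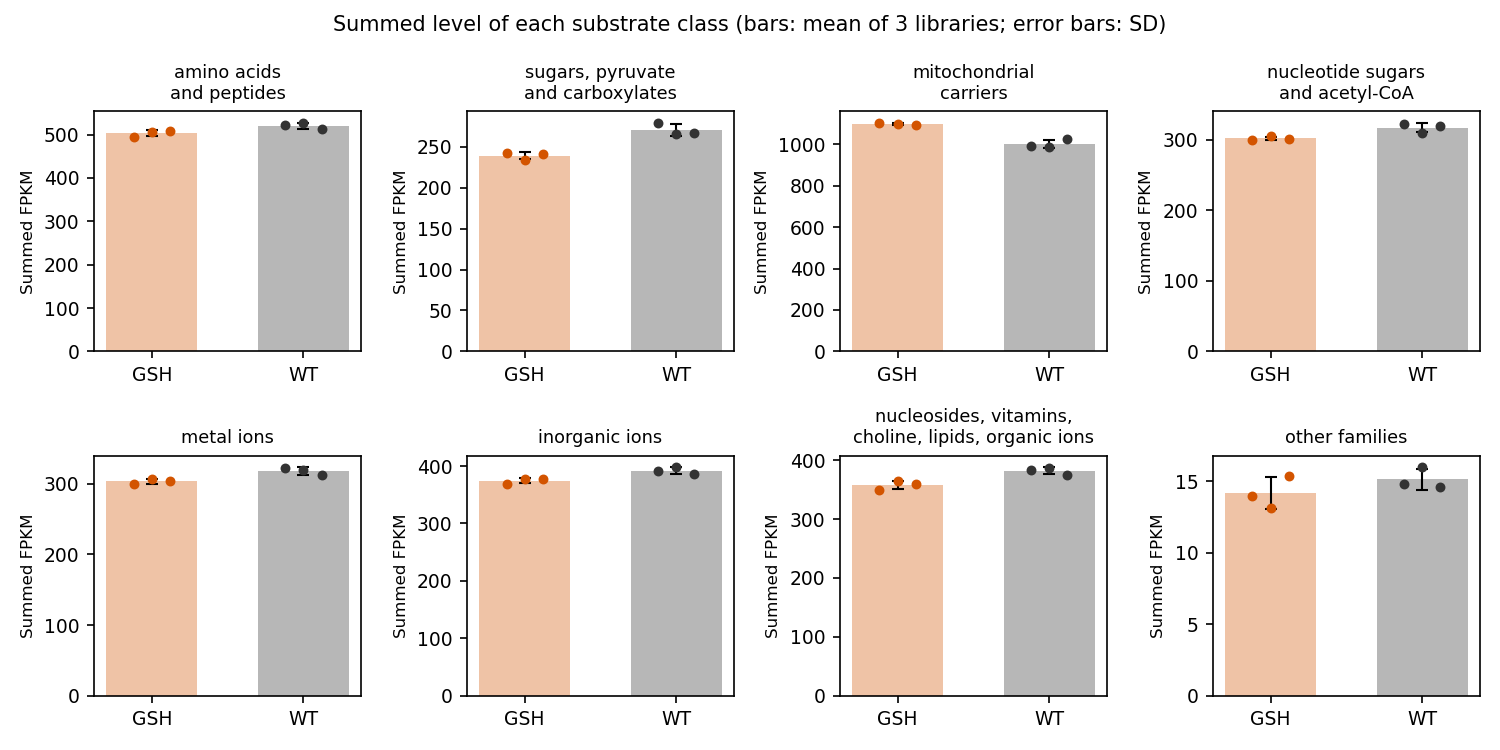
Summed FPKM of each substrate class in 3 GSH and 3 WT libraries; bars are means from 0, points are libraries and error bars are SD. Mitochondrial carriers sum to 1098 FPKM in GSH and 1000.3 FPKM in WT, a difference that comes mostly from Slc25a5 and Slc25a4. The sums of the other classes have a lower mean in GSH.

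Transport genes without an Slc symbol were counted in the same fit, from a list of 44 carriers, porins, pump subunits and volume-regulated channels of which 38 were tested. In GSH, 6 rose (15.8%, beside 20.6% of all genes tested), 11 fell (28.9%, beside 16.4%) and 21 did not pass, with a median of -0.068. The 6 genes with the smallest p included 4 mitochondrial proteins that rose. Other called mitochondrial proteins of the list, named after their values were seen, went both ways. Sfxn4 and Sfxn2 fell (log2 changes -0.32 and -0.19, adjusted p = 0.0143 and 0.0292), and Mtch1 and Vdac3 rose (0.20 and 0.17, adjusted p = 0.0203 and 0.029). The outer membrane porins Vdac1 and Vdac2 averaged 108 ± 1.34 and 34.3 ± 0.124 FPKM in GSH, against 90.1 ± 2.91 and 29.9 ± 0.157 FPKM in WT (log2 changes 0.26 and 0.19, adjusted p = 0.00263 and 0.00254). The mitochondrial serine carrier Sfxn1 averaged 10.4 ± 0.246 FPKM in GSH and 8.66 ± 0.187 FPKM in WT (log2 change 0.23, adjusted p = 0.00356). Ucp2, an uncoupling protein of the SLC25 fold, averaged 17.0 ± 0.23 FPKM in GSH and 12.9 ± 1.04 FPKM in WT (log2 change 0.37, adjusted p = 0.00433). The sodium pump subunit Atp1b3 fell, with 166.1 ± 1.77 FPKM in GSH and 198.7 ± 0.226 FPKM in WT (log2 change -0.26, adjusted p = 0.00178), and so did the heme exporter Flvcr1, with 14.6 ± 0.42 FPKM in GSH and 18.2 ± 0.377 FPKM in WT (log2 change -0.30, adjusted p = 0.00213). Errors are SD with n = 3 in each group. The 6 genes with the smallest p were each called under the 17 alternatives.

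The 250 bases before the start of 2 members with among the largest increases and 2 with the largest decreases are shown, so that promoters of opposite direction can be compared. The windows are those of RefSeq on GRCm38.p6, written 5′ to 3′ on the gene's strand, and capitals mark matches on either strand to any of the 7 motifs searched. Slc25a39 lies on the minus strand (chr11:102407518-102407767) and Slc25a5 on the plus strand (chrX:36795347-36795596), and both rose. Slc7a6os (chr8:106210934-106211183) and Slc50a1 (chr3:89270571-89270820) lie on the minus strand, and both fell.
Slc25a39: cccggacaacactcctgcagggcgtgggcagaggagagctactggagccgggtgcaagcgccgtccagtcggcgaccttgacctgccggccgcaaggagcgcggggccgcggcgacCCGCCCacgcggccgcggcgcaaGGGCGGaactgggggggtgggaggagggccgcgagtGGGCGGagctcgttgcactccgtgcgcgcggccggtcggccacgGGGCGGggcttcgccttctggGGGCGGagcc
Slc25a5: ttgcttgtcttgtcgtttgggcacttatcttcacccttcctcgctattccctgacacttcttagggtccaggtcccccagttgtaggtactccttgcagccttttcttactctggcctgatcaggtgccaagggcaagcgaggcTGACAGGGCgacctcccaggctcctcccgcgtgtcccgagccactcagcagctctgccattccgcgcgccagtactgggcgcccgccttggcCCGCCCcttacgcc
Slc7a6os: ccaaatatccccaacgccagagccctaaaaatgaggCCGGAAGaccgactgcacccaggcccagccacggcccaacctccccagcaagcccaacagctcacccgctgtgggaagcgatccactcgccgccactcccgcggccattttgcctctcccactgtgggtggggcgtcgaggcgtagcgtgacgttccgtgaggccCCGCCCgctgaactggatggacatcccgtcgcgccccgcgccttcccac
Slc50a1: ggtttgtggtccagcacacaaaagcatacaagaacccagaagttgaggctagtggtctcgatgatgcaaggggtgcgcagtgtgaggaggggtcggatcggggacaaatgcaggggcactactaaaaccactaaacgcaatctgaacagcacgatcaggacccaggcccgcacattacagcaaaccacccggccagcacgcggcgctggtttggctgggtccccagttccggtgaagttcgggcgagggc

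The Slc25a39 window holds 5 GC boxes (GGGCGG) and is 77.2% G or C. That of Slc25a5 holds 1 GC box and 1 match to the antioxidant response element core TGACNNNGC, at 61.6% G or C. That of Slc7a6os holds 1 GC box and 1 ETS motif (CCGGAAG), at 67.2%, and that of Slc50a1 holds none of the motifs, at 58.4%. The windows shown for increases were a choice and leave out Slc35a4, the largest increase among called members. The window of Slc9a3r1, which also rose, is not printed. It holds 3 GC boxes and 2 matches to CCAAT, at 62.8% G or C. The printed windows alone therefore do not settle how the directions differ. Windows were found for 136 of the 173 members, with a median of 61.4% G or C, beside 60.4% for the 8466 tested genes with a window. GC boxes were in 62.5% of the members' windows, in 61.9% of those of tested genes and in 32.9% of all 27025 windows. The antioxidant core was in 16.2% of members' windows, 12.1% of those of tested genes and 10.1% of all, with 4 of 14 members higher in GSH and 6 of 35 members lower in GSH holding it. The E-box CACGTG was in 11.8% of members' windows, 8.66% of those of tested genes and 6.05% of all. CCAAT was in 36.8, 36.9 and 34.5% of these sets, and CCGGAAG in 13.2, 15.2 and 7.05%. The cAMP response element TGACGTCA was in 1.47, 2.98 and 1.62%, and the AP-1 motif TGACTCA in 2.94, 2.99 and 4.43%. Among the 14 windows of higher and the 35 of lower members, CCAAT was in 50 and 31.4% and GC boxes in 71.4 and 65.7%. The E-box was in 21.4 and 17.1%, CCGGAAG in 7.14 and 8.57%, the AP-1 motif in 7.14 and 0% and the cAMP response element in none. Differences between the directions were not tested for any motif. Matches to different motifs may overlap, and a match is a description of letters.

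In Cas9 against Ctrl, all 173 members were listed and 158 reached the mean of 1 FPKM needed for the test. None of the 158 passed limma's adjusted p of 0.05, as none of the 11407 genes tested did (0% called). At an unadjusted p of 0.05 there was 1 member, and 1.84% of all genes tested. Ctrl is 1 library, assumed to vary as the Cas9 libraries do, and these alone supply the 2 residual degrees of freedom. In 22 members all 3 Cas9 libraries lay above Ctrl 3 (20.1% of all genes tested did) and in 41 all 3 lay below (22.5% of all genes tested did). The members' median was -0.029, against -0.011 over all genes tested.

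Slc20a1, the phosphate carrier, was the member with the smallest p. It measured 19.8, 34.9 and 22.9 FPKM in Cas9 1 to 3, against 48.8 FPKM in Ctrl 3 (log2 change -0.93, SE 0.33, limma adjusted p = 1). All Cas9 libraries lay below the Ctrl library, Cas9 2 nearest to it. The zinc exporter Slc30a1 measured 2.36, 2.30 and 2.53 FPKM in Cas9, against 1.48 FPKM in Ctrl 3. Slc22a15 measured 4.56, 5.50 and 3.42 FPKM in Cas9, against 7.26 FPKM in Ctrl 3, and the bicarbonate carrier Slc4a7 measured 7.88, 7.56 and 7.05 FPKM in Cas9, against 9.63 FPKM in Ctrl 3. Unadjusted limma p was 0.0398 for Slc20a1 and 0.0656, 0.0697 and 0.0899 for these 3. Of members described above in GSH against WT, Slc25a5 measured 173, 176 and 217 FPKM in Cas9, against 165 FPKM in Ctrl 3, and Slc25a39 measured 48.8, 47.9 and 46 FPKM in Cas9, against 47.5 FPKM in Ctrl 3. Slc7a6os measured 26.9, 23.6 and 23.5 FPKM in Cas9, against 23.7 FPKM in Ctrl 3. The Ctrl library lay below the Cas9 libraries for Slc25a5 and among them for the other 2, and none of the 3 passed.

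The 2 tables were normalised separately, over different gene sets, and no test was made across them. Members took 0.638 to 0.644% of all FPKM in Cas9 libraries and 0.68% in Ctrl 3, beside the 0.956 to 0.994% of GSH and WT libraries. These shares are not on an equal footing, since members were chosen by their level in GSH and WT libraries alone. Of the 167 Slc genes below that mean, 3 averaged 5 FPKM or more over the Cas9 and Ctrl libraries. The median ratio of a member's mean in the Cas9 and Ctrl libraries to its mean in the GSH and WT libraries was 0.80, against 1.26 over the 10090 genes at 1 FPKM or more in GSH and WT that both tables list. Ratios over 2 were found for 13.3% of members and 30.1% of those genes, and ratios under 0.5 for 32.4% of members and 15.6% of those genes.

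**Figure D5:**
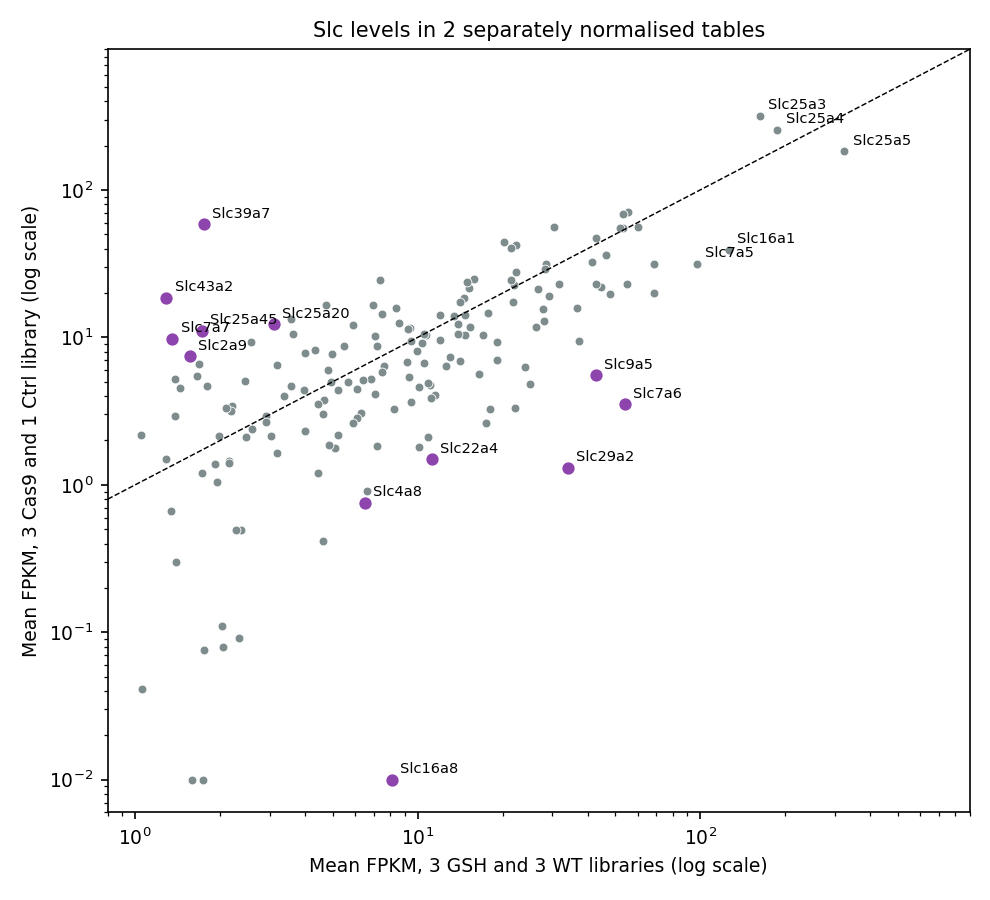
Mean FPKM of each Slc gene over 3 Cas9 libraries and Ctrl 3 (vertical) against its mean over 3 GSH and 3 WT libraries (horizontal), both on log axes, with values under 0.01 drawn at 0.01; the dashed line marks equal values and large points are the 6 highest and 6 lowest ratios among genes with 5 FPKM or more in the higher table. Slc39a7 lies at 58.3 against 1.75 FPKM, and Slc7a6 at 3.54 against 54.2 FPKM.

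The highest ratios, among members with 5 FPKM or more in the higher table, stood beside other marker levels: 5 macrophage markers summed to 730 to 1552 FPKM in Cas9 and 1530 FPKM in Ctrl 3, against 18.9 to 22.5 FPKM in GSH and 20.6 to 22.5 FPKM in WT, and 4 fibroblast markers to 434 to 1501 FPKM in Cas9 and 967 FPKM in Ctrl 3. Slc43a2, a carrier of large neutral amino acids, measured 22.4, 19 and 15.3 FPKM in Cas9 and 17.8 FPKM in Ctrl 3, against 1.18 to 1.32 FPKM in GSH and 1.26 to 1.39 FPKM in WT. Slc7a7, which exchanges cationic amino acids and is known in macrophages, measured 13.6, 8.19 and 6.76 FPKM in Cas9 and 10.7 FPKM in Ctrl 3, against 1.22 to 1.32 FPKM in GSH and 1.21 to 1.71 FPKM in WT. The part of other cell types in these levels was not tested. Slc25a45, Slc2a9 (a urate carrier) and Slc25a20 (the carnitine-acylcarnitine carrier) averaged 11.1, 7.44 and 12.3 FPKM over the Cas9 and Ctrl libraries, and 1.73, 1.56 and 3.09 FPKM over the GSH and WT libraries.

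Slc39a7, a zinc carrier of the endoplasmic reticulum, had the highest ratio. It measured 63.8, 56.1 and 50.004 FPKM in Cas9 and 63.5 FPKM in Ctrl 3, against 1.55, 2.05 and 1.69 FPKM in GSH and 1.64, 1.91 and 1.64 FPKM in WT. In GENCODE M21, 80.7% of its exon bases are shared with Gm20427 on the same strand, a gene listed at 0 to 0.0357 FPKM in the GSH and WT libraries, and the part of this overlap in the ratio was not tested. The level of Slc39a7 in the GSH and WT table is therefore uncertain.

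By the same minimum, the lowest ratios included Slc7a6, which measured 4.00, 3.35 and 3.27 FPKM in Cas9 and 3.54 FPKM in Ctrl 3, against 50.5 to 51.9 FPKM in GSH and 55.4 to 58.7 FPKM in WT. Slc29a2 measured 1.47, 1.02 and 1.71 FPKM in Cas9 and 1.03 FPKM in Ctrl 3, against 30.4 to 32.7 FPKM in GSH and 34.4 to 37.5 FPKM in WT. Slc9a5 measured 4.36, 4.51 and 6.63 FPKM in Cas9 and 6.65 FPKM in Ctrl 3, against 37.0 to 39.3 FPKM in GSH and 45.5 to 49.5 FPKM in WT. These 3 genes were thus among the well-expressed members of one table and among the low ones of the other. Slc16a8, the lactate carrier MCT3, was listed at 0.0312 FPKM in Cas9 1 and at 0 in Cas9 2, Cas9 3 and Ctrl 3, against 7.70 to 8.70 FPKM in GSH and 7.81 to 8.40 FPKM in WT. Slc22a4, known for carrying ergothioneine, and Slc4a8, a bicarbonate carrier, averaged 1.49 and 0.757 FPKM over the Cas9 and Ctrl libraries, and 11.2 and 6.52 FPKM over the GSH and WT libraries.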

How the data were processed

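Values were taken from the deposited tables of 10 libraries. The deposited values were read as FPKM, that is, as fragments the authors scaled to transcript length and library total; no label or header states this unit, and it rests on the values, since with merged exon lengths of GENCODE M21 98.38 to 98.54% of values under 200 reads in the GSH and WT libraries are whole reads within 0.02 read. In the Cas9 and Ctrl table, steps common to the 4 libraries gave whole reads for 93.94% of genes (within 0.002 read), so its read totals are minima. Bowtie2 (2.2.3), HISAT2 (2), HTSeq (0.6.0) and the build mm8 are named without roles, per the submitters' processing notes; no coordinates of that build are given. Per the labels' protocols, libraries came from Trizol RNA with a NEBNext Ultra kit, and whether counting used strand is not given in the sources used here.

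Symbols were matched for 30190 of 30803 identifiers. Tests were run within each table with limma (3.58.1, R 4.3.3; lmFit and eBayes with trend) on log2(FPKM + 1), as a two-sided test; p-values were adjusted by Benjamini-Hochberg (threshold 0.05) across all genes with a mean of 1 FPKM or more; low genes' fold changes are understated on this scale. The design's count model was not used, since no file holds counts; voom on recovered reads was added as an alternative after seeing the data. Alternatives covered pseudocounts, filters, scaling, trend, a replicate block, a term for the 3 libraries with gland markers and leaving out each library. The script was tested on simulated data. Labels do not say whether replicates were separate cultures, and the spread behind each p-value may therefore be technical.

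Members, classes (by SLC family number) and lists were chosen with earlier results of these data known. Genes were named by rule: the 12 largest increases and decreases among called members without overlap and with a group mean of 5 FPKM or more, the 12 highest, the 2 highest of each class, the 3 on either side of the threshold, the 4 smallest p in Cas9 against Ctrl, the 6 highest and lowest ratios between tables (at 5 FPKM or more in the higher table) and the 6 related genes with the smallest p. Exceptions are stated where they occur.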

Additional observations from a re-analysis of the deposited data

How the results depend on the processing

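Of 59 called members, 29 (7 higher, 22 lower in GSH) were called under all 17 alternatives that tested them. The same count was not made over all genes. Members higher in GSH numbered 17, against 8 with no filter on low values, 7 with mitochondrial genome genes left out of the scaling, 8 with the 10 most abundant genes left out, 10 with a term for WT 3, GSH 2 and GSH 3, and 8 to 13 without 1 library. Members lower in GSH numbered 42, against 27 with no filter, 64 with mitochondrial genome genes left out and 23 to 38 without 1 library. Calls over all genes tested also dropped, from 4547 to between 3004 and 3668 without 1 library. Over all genes, 2533 rose and 2014 fell as first tested, against 1697 and 1389 with no filter and 2052 and 1607 with the term. With mitochondrial genome genes left out 1446 rose and 2792 fell, and with the 10 most abundant genes left out 1738 and 2457. The cause of these shifts was not tested. With pseudocounts of 0.1 or 0.5, 17 rose and 43 fell, beside 2537 higher and 2007 or 2010 lower over all genes tested. With voom on recovered reads, added after seeing the data, 22 rose and 59 fell, beside 2949 and 2231 over all genes tested. Labels do not say whether the replicate numbers pair the samples. Same-numbered GSH and WT libraries correlated at 0.479, -0.107 and 0.209 in their deviations, and differently numbered ones at -0.491 to 0.393. So few libraries cannot settle the pairing. With the number as a replicate block 11 rose and 38 fell, beside 2145 and 1722 over all genes tested. In Cas9 against Ctrl, 0 members were called under each alternative run. Members with under 100 reads in a library (12) are limited by depth.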
